A study of Mus musculus with 18 samples.

Results

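Kcnip2 and 8 genes of repolarising potassium channels were followed in mouse cardiac ventricles after deletion of the gene for serum response factor (SRF), which binds the promoters of many muscle and early growth genes. The genes, chosen with earlier results of these data known, were Kcnip2, Kcnd2, Kcnd3, Kcna5, Kcnq1, Kcnh2, Kcnj2, Kcnj3 and Kcnj11, and every probe set that the platform annotation assigns to 1 of them was taken, 21 of the 45101 on the array. These 9 genes are among 18194 named on the array. Of them, 8 genes with 15 probe sets were bright enough to be tested, and Kcnj2 was not.

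The arrays came from 18 male mice of the labelled strain CR7BL6, 10 weeks old, 1 ventricular sample per array. The mutants (SRFHKO) and the controls, littermates described as SRF-flex2neo, had all been given tamoxifen (0.7 mg on 3 days), so the drug was shared by every group. At day 8 there were 2 control and 4 SRFHKO hearts. At day 25 there were 3 control hearts, 3 SRFHKO hearts, and 3 hearts of each genotype given phenylephrine (PE), which activates alpha-1 adrenergic receptors, at 80 mg/kg/day by minipump from day 10 to day 25. The labels do not name the Cre transgene or the promoter that drives it, so the cells in which the gene was deleted are not stated. The titles call the replicates biological.

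Repolarisation of a cardiac myocyte is carried by several potassium currents. In mouse ventricle the fast transient outward current flows through the pore subunits encoded by Kcnd2 and Kcnd3, and KChIP2, the calcium-binding protein encoded by Kcnip2, binds these pores and raises their number at the cell surface. Kcna5 encodes the pore of an ultrarapid delayed rectifier, Kcnq1 and Kcnh2 encode the pores of the slow and the rapid delayed rectifier, and the Kcnj genes encode inward rectifiers: Kcnj2 sets the resting potential, Kcnj3 forms the acetylcholine-activated channel that is richest in atrium and pacemaker tissue, and Kcnj11 forms the ATP-sensitive channel.

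Levels are given as log2(scaled signal + 2), in which each array was first scaled to a common trimmed mean, and differences are SRFHKO minus control or PE minus no PE on that scale, with the standard error of a limma fit over 12610 genes. A gene is called changed where the p adjusted over all 12610 genes by Benjamini-Hochberg was below 0.05. Levels of different genes come from different probes and are not set against each other. The share of all genes whose groups do not overlap was not counted in any contrast. Groups this small can be apart by chance, and for 3 against 3 arrays the smallest exact permutation p is 0.1. Groups without overlap are therefore a description of the arrays.

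For orientation, the 250 bases before the annotated start of Kcnd3 and of Kcnd2 are shown, because these genes encode the paired pores of 1 current and only the first was called changed below. Both are RefSeq sequence of build GRCm38.p6, plus strand, at chr3:105451640-105451889 for Kcnd3 and chr6:21215096-21215345 for Kcnd2, ending at the base before each gene's start. Capitals mark the letters found in a search of both strands for 5 motifs: the CArG box that SRF binds, the TATA motif TATAAA, the GC box GGGCGG, the E-box CAGCTG and a further E-box CACGTG, none of which overlapped another here.
Kcnd3: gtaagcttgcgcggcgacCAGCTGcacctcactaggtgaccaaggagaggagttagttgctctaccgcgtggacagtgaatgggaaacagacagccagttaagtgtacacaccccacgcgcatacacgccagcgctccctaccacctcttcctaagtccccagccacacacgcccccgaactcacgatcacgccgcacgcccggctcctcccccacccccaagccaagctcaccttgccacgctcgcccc
Kcnd2: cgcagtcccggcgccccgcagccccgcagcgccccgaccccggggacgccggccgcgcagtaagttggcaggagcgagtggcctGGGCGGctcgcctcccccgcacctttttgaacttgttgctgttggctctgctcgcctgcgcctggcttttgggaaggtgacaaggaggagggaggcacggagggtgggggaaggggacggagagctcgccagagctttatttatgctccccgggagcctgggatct
The Kcnd3 stretch held 1 CAGCTG, and the Kcnd2 stretch held 1 GGGCGG. Of the 9 genes, 7 had such a window in the RefSeq table. The CArG box was in 0 of the 7 and in 1.47% of all 32851 windows of this length. GGGCGG was in 4 of the 7 (Kcnip2, Kcnd2, Kcnj2 and Kcnh2; 32.7% of all windows), CAGCTG in 3 (Kcnd3, Kcnj2 and Kcnj3; 13.0%), CACGTG in 1 (Kcnj2; 6.02%) and TATAAA in 0 (12.4%). These are letters in a short window, not binding sites.

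As facts of the whole series, the deposited arrays had trimmed means from 46.6 to 148, and at day 25 the SRFHKO arrays were brighter than the control arrays before scaling, without overlap: 71.2 to 83.5 against 46.6 to 68.5 without PE, and 75.9 to 85.4 against 52.5 to 75.3 with PE. The ratio of 3' to 5' Gapdh signal, a measure of RNA integrity, separated the genotypes at day 8 (0.850 to 0.936 in SRFHKO and 1.01 to 1.02 in control arrays) and at day 25 without PE (0.820 to 0.835 and 0.868 to 0.945). The scaled 18S control signal also separated them at day 8, at 705 to 1402 in SRFHKO and 2426 to 3069 in control arrays. It overlapped in both day 25 settings. The part of these array properties in the results below was not tested beyond the fit with array brightness as a covariate that is given beside them. Since brightness ran with genotype at day 25, that fit can part them only through the spread within groups. A call lost under it can reflect a larger standard error as well as a changed difference. The 2 Srf probe sets did not separate the genotypes in any setting except the dimmer one at day 25 without PE, where SRFHKO arrays read 5.02 to 5.85 and control arrays 5.97 to 6.12 (-0.54 ± 0.19, limma adjusted p over probe sets = 0.148); no source used here says where they lie relative to the deleted part, so they check nothing about the labels. The labels name no array run, so a run that followed day could not be told apart from day. The day 8 arrays were brighter before scaling (110 to 148) than the day 25 arrays (46.6 to 85.4). Channel gene levels are therefore compared between days only through the difference between genotypes.

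Kcnip2 fell in SRFHKO ventricles at day 25, both without and with PE, and this was the largest difference among the 8 tested genes in either setting. Its brighter probe set, 1436275_at, read 9.29, 8.51 and 9.02 in control hearts at day 25 and 7.02, 7.58 and 6.61 in SRFHKO hearts. With PE it read 9.57, 8.83 and 9.45 in control and 6.84, 7.66 and 7.56 in SRFHKO hearts. In both settings every SRFHKO heart lay below every control heart.

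The Kcnip2 difference was -1.87 ± 0.25 at day 25 without PE (n = 3 and 3; limma adjusted p = 0.000975) and -1.93 ± 0.25 with PE (n = 3 and 3; limma adjusted p = 0.000730). By p-value it ranked 9th and 8th of the 12610 genes. At day 25 without PE 2.34% of all genes tested were called, 1.08% as lower, and with PE 1.63%, 0.896% as lower. The PE by genotype interaction for Kcnip2 was -0.06 ± 0.36 (95% interval -0.82 to 0.70; limma adjusted p = 0.979), so the size of the fall with PE was not shown to differ from that without it.

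At day 8 the same probe set read 9.52 and 9.32 in the control hearts and 8.64, 9.05, 8.95 and 8.81 in the SRFHKO hearts. The groups did not overlap, and the difference of -0.56 ± 0.27 did not pass the threshold (limma adjusted p = 0.578). At day 8 only 0.0634% of all genes were called. The change in the deletion difference from day 8 to day 25 without PE was -1.31 ± 0.37 (unadjusted p = 0.00237, limma adjusted p = 0.197), and it was not called; no gene was called in that contrast (0% of 12610; 1407 had an unadjusted p below 0.05, as did 1 of the 8 tested channel genes, Kcnip2).

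**Figure D1:**
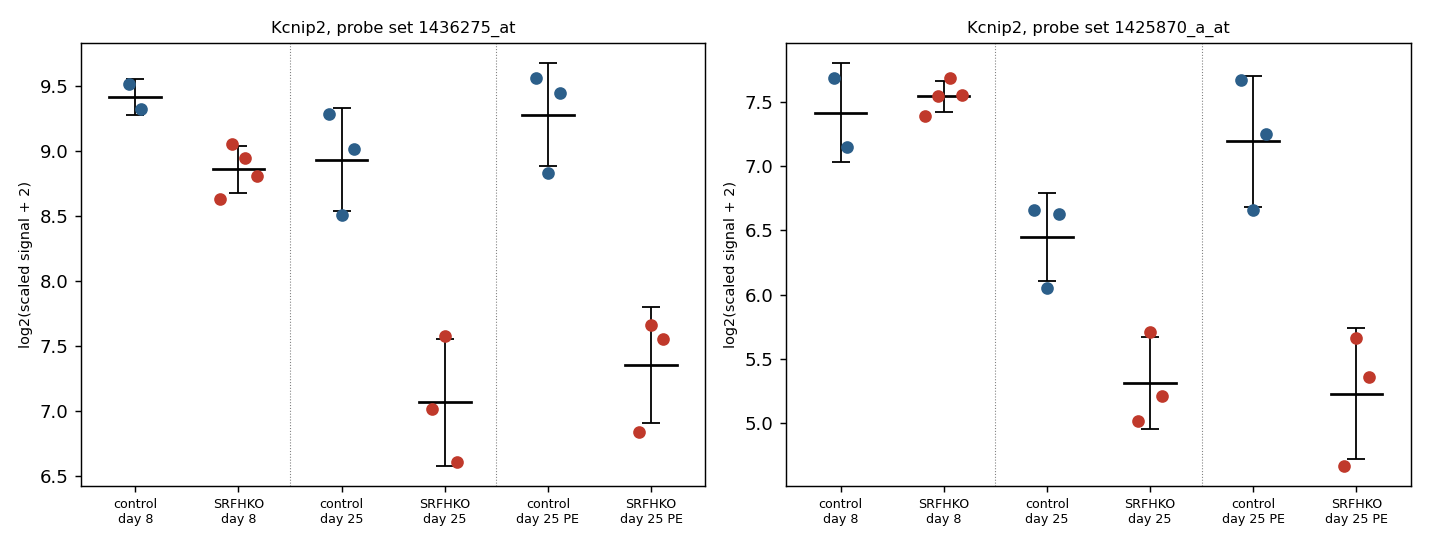
Level of Kcnip2 on each array, as log2(scaled signal + 2), for 2 probe sets across the 6 groups; points are arrays (blue control, red SRFHKO), bars the group mean and SD, and the vertical axes do not start at 0. In both panels the 3 SRFHKO arrays lie below the 3 control arrays at day 25 without and with PE, and at day 8 the genotypes are apart only in the left panel.

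A second Kcnip2 probe set, 1425870_a_at, gave the same direction at day 25 and a different picture at day 8. It read 6.66, 6.05 and 6.63 in control and 5.02, 5.71 and 5.21 in SRFHKO hearts at day 25, a difference of -1.14 ± 0.27 (limma adjusted p over 27000 probe sets = 0.0352). With PE it read 7.67, 6.66 and 7.25 in control and 4.67, 5.67 and 5.35 in SRFHKO hearts, a difference of -1.96 ± 0.27 (limma adjusted p over probe sets = 0.00120). At day 8 it read 7.69 and 7.15 in control and 7.39, 7.54, 7.69 and 7.56 in SRFHKO hearts, which overlapped (0.13 ± 0.28).

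Over all probe sets, 2.19% were called at day 25 without PE and 0.930% with PE. The day 8 separation of the brighter Kcnip2 probe set was therefore not repeated by the second one, while the day 25 fall was. Another probe set, 1421783_a_at, had a mean below the filter limit of 3.58, ran from 1.52 to 4.45 over the arrays and was not tested. Probe sets ending in _a_at read more than 1 transcript of a gene, and no source used here says which Kcnip2 transcripts each one reads.

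Markers of the working myocyte also read lower on the scaled arrays. The summed scaled signal of 10 ventricular cardiomyocyte markers was 79159 to 95145 in SRFHKO against 102396 to 113099 in control hearts at day 25, and 78922 to 84083 against 89425 to 107146 with PE, without overlap in either. Among the 10 markers 1 was called in each setting, Myl3, the ventricular essential myosin light chain (-0.73 ± 0.11 and -0.81 ± 0.11; limma adjusted p = 0.00322 and 0.000982), and the median differences were -0.30 and -0.27. Both Myl3 calls were lost without scaling (-0.32 and -0.50; limma adjusted p = 0.109 and 0.0564), and the first also with array brightness as a covariate (0.0586). Averaged over the 3 settings Myl3, Actc1 (cardiac actin) and Myh6 (the alpha myosin heavy chain) were called lower, 3 of the 10 markers beside 2.89% of all genes (-0.54 ± 0.07, -0.36 ± 0.06 and -0.25 ± 0.06; limma adjusted p = 0.000154, 0.00326 and 0.0144). Without scaling the Actc1 and Myh6 calls were lost (-0.11 and -0.0055), the Actc1 call also with array brightness as a covariate (0.0704), and the Myh6 call was lost under 5 other alternatives and without control replicate 1 of day 8 (0.0575). The size and sign of the day 25 medians depended on the scaling: without any scaling they were 0.12 and 0.04, beside medians over all genes of 0.35 and 0.29. With median scaling they were -0.08 and -0.14, and with quantile normalisation -0.05 and -0.03. Under quantile normalisation 1 of the 10 markers was also called higher at day 25 without PE. The Kcnip2 difference was called under each scaling tried. Taken per 1000 units of this sum, a measure chosen after the levels had been seen, Kcnip2 signal was 1.03 to 2.39 in SRFHKO and 3.54 to 5.57 in control hearts at day 25, and 1.40 to 2.54 against 5.08 to 7.49 with PE. The groups were apart on that measure too. The sum differed far less between genotypes than Kcnip2 did, so this outcome was fixed by the levels above and is no separate result. In whole ventricle, fewer cells of a type and less RNA per cell cannot be told apart.

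The genes whose levels followed Kcnip2 most closely over the 18 arrays were Ckm, muscle creatine kinase (Pearson r = 0.894, Spearman rho = 0.810), 0610009L18Rik (0.871 and 0.746), Gstp1, a glutathione transferase (0.864 and 0.765), Gpr18 (0.859 and 0.810) and Syne2, a nuclear envelope protein (0.858 and 0.783). The most opposite were the proton pump subunit genes Atp6v1f (-0.906 and -0.870) and Atp6v0e (-0.889 and -0.862), then Cfap20, Nme1 and 2610001J05Rik (Pearson r = -0.849, -0.843 and -0.842). The arrays share the 6 groups and the scaling, so these are descriptions. With each group mean taken away, r for Ckm was 0.07, and the closest genes were then Coro2b (0.886), E330017L17Rik (0.871) and Elac2 (0.869). Among the channel genes, each read by its brightest probe set, Kcnd3 ran most opposite to Kcnip2 (r = -0.814 over 18 arrays and -0.333 within groups).

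Read by their brightest probe sets, Kcnd3 and Kcnd2, the pores that KChIP2 binds, did not follow the fall of Kcnip2. For Kcnd3, probe set 1435720_at read 6.48, 6.67 and 6.26 in control hearts with PE and 7.27, 7.24 and 7.17 in SRFHKO hearts with PE. All 3 SRFHKO hearts lay above all 3 control hearts, a difference of 0.76 ± 0.15 (n = 3 and 3; limma adjusted p = 0.0118), or 1.69-fold. Of all genes, 0.738% were called as higher in that setting.

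At day 25 without PE, Kcnd3 read 6.70, 6.97 and 6.85 in control and 7.13, 7.10 and 7.13 in SRFHKO hearts. These groups did not overlap either, and the difference of 0.28 ± 0.15 did not pass the threshold (limma adjusted p = 0.318). At day 8 it read 6.72 and 6.72 in control and 6.71, 7.06, 6.50 and 6.83 in SRFHKO hearts, which overlapped (0.05 ± 0.15). In order of level at day 25, SRFHKO with PE stood first, then SRFHKO, control, and control with PE, and no neighbours in that order overlapped. The share of all genes with groups apart in this way was not counted.

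The other Kcnd3 probe sets did not repeat this rise. The only other one above the filter, 1442555_at, was dim and ran the opposite way with PE, at 3.71, 4.62 and 3.75 in control and 3.60, 1.84 and 1.93 in SRFHKO hearts (-1.57 ± 0.57, limma adjusted p over probe sets = 0.221). The probe set 1426070_a_at, below the filter and so not tested, differed by -1.35 in both day 25 settings. With the mean of the probe sets of a gene in place of the brightest, the Kcnd3 difference with PE was -0.41 (limma adjusted p = 0.598), so the call and its direction rest on 1 probe set. The call was also lost with array brightness as a covariate (limma adjusted p = 0.0881), with only the 2 groups compared in the fit (0.0514), and without control PE replicate 3 (0.0736) or SRFHKO PE replicate 2 (0.0602).

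Kcnd2 was not called in any of the 9 contrasts. Its brightest probe set, 1422835_at, had group means of 7.84 ± 0.38 in control and 8.08 ± 0.22 in SRFHKO hearts at day 25 (SD, n = 3 each), and 7.81 ± 0.11 and 7.89 ± 0.23 with PE. The groups overlapped in all 3 settings, with differences of 0.23 ± 0.22 at day 8, 0.24 ± 0.21 at day 25 and 0.09 ± 0.21 with PE. The 95% intervals of these 3 were -0.23 to 0.69, -0.19 to 0.67 and -0.35 to 0.52. The Kcnd2 probe sets 1450773_at and 1422834_at were not called either, with deletion differences between -0.13 and 0.30, and 1447764_at lay below the filter.

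**Figure D2:**
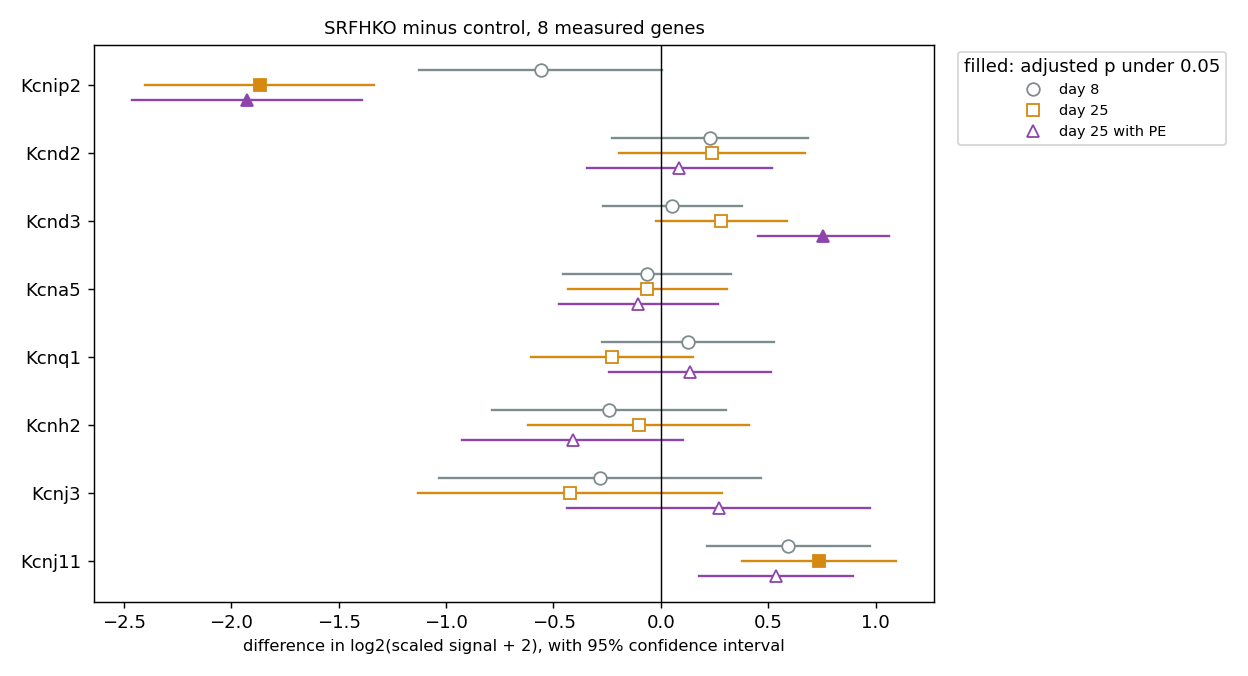
SRFHKO minus control difference in log2(scaled signal + 2) with its 95% confidence interval, for the 8 tested genes at day 8 (circles), day 25 (squares) and day 25 with PE (triangles); filled symbols had a limma adjusted p below 0.05. Kcnip2 lies at -1.87 and -1.93 at day 25, and the filled symbols above 0 are Kcnj11 at day 25 (0.74) and Kcnd3 with PE (0.76).

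Of the delayed rectifiers, none was called in any contrast. Kcna5, read by 1 probe set, ranged from 7.33 to 8.39 over the 18 arrays, and its deletion differences were -0.06 ± 0.19 at day 8, -0.06 ± 0.18 at day 25 and -0.11 ± 0.18 with PE. Its 95% interval at day 25 ran from -0.43 to 0.31, which does not reach the size of the Kcnip2 difference. Its PE differences were -0.08 ± 0.18 in control and -0.13 ± 0.18 in SRFHKO hearts.

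Kcnq1, read by 1 probe set, ranged from 7.16 to 8.07. Its deletion differences were 0.13 ± 0.19 at day 8, -0.23 ± 0.18 at day 25 and 0.14 ± 0.18 with PE, so the sign was not the same in the 3 settings. Kcnh2, also read by 1 probe set, ranged from 7.03 to 8.41. Its deletion differences were below 0 in all 3 settings, at -0.24 ± 0.26, -0.10 ± 0.24 and -0.41 ± 0.24, although the second turned to 0.12 with median scaling and 0.31 without scaling. The groups overlapped each time, and the mean over the settings was -0.25 ± 0.14 (limma adjusted p = 0.340).

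Among the inward rectifiers, Kcnj11 was higher in SRFHKO hearts in every setting, and only the day 25 difference without PE was called. Probe set 1455417_at read 7.50, 7.18 and 7.69 in control and 8.27, 8.28 and 8.03 in SRFHKO hearts at day 25. The difference was 0.74 ± 0.17 (n = 3 and 3; limma adjusted p = 0.0292), or 1.67-fold, and 1.26% of all genes were called as higher there. With PE it read 7.42, 7.92 and 7.11 in control and 8.02, 8.04 and 8.00 in SRFHKO hearts (0.53 ± 0.17, limma adjusted p = 0.124).

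At day 8 Kcnj11 read 8.07 and 7.88 in control and 8.34, 8.65, 8.56 and 8.71 in SRFHKO hearts (0.59 ± 0.18, limma adjusted p = 0.326). The genotypes did not overlap in any of the 3 settings, and the share of all genes apart in this way was not counted. Averaged over them, the difference was 0.62 ± 0.10 (limma adjusted p = 0.00177). The dimmer Kcnj11 probe set, 1450515_at, was also without overlap at day 8, at 5.39 and 4.79 against 6.18, 6.16, 6.37 and 6.38 (1.18 ± 0.62, limma adjusted p over probe sets = 0.490), and showed 0.05 ± 0.59 at day 25 and 0.68 ± 0.59 with PE.

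The Kcnj11 call at day 25 was lost without any 1 of 5 arrays (control replicates 1 and 2 and SRFHKO replicates 1, 2 and 3; differences from 0.60 to 0.82 and limma adjusted p from 0.0597 to 0.101). It was also lost with the mean of its probe sets (0.39, limma adjusted p = 0.613) with array brightness as a covariate (limma adjusted p = 0.200), with only the 2 groups compared in the fit (0.0859) and without the intensity trend (0.0657). Without control PE replicate 2, the brightest of that group, the difference with PE was 0.75 and passed the threshold (limma adjusted p = 0.0238).

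**Figure D3:**
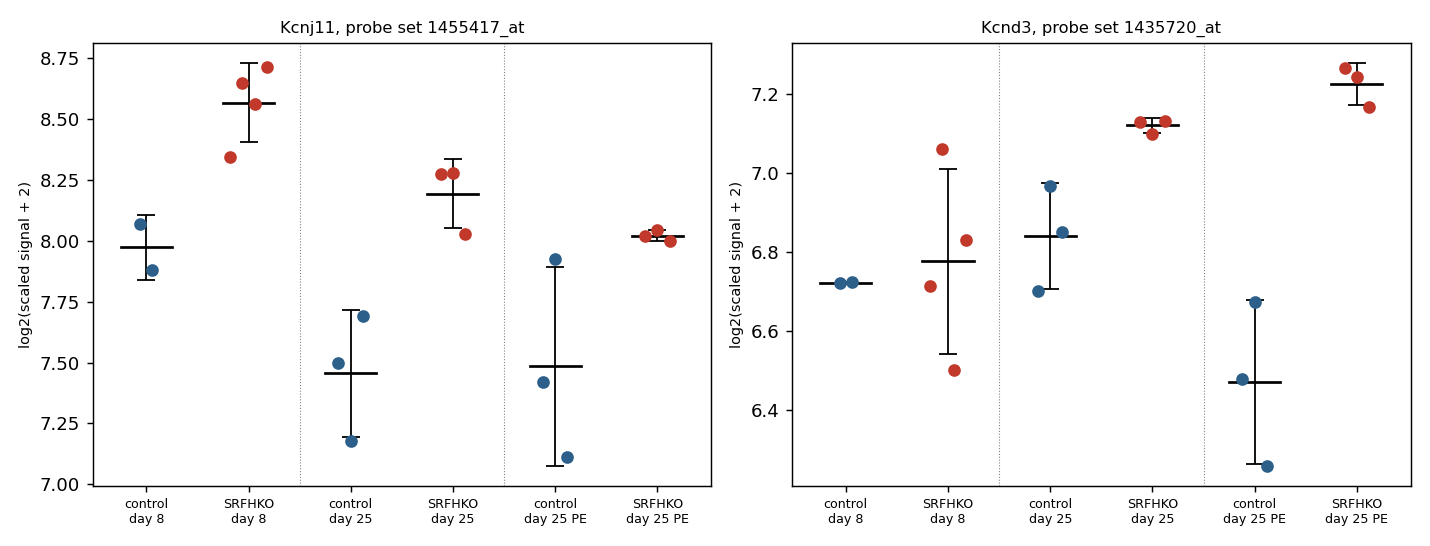
Levels of Kcnj11 (probe set 1455417_at) and Kcnd3 (1435720_at) on each array, as log2(scaled signal + 2), in the 6 groups; points are arrays (blue control, red SRFHKO), bars the group mean and SD, and the axes do not start at 0. Kcnj11 is higher in SRFHKO than in control arrays without overlap in all 3 settings, and Kcnd3 spreads from 6.26 in a control PE heart to 7.27 in an SRFHKO PE heart.

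The subunits that pair with Kcnj11 were measured as well. Abcc8, the sulphonylurea receptor SUR1, differed by 0.38 ± 0.21 at day 8, 0.21 ± 0.20 at day 25 and 0.48 ± 0.20 with PE, and by 0.36 ± 0.12 averaged over the settings (limma adjusted p = 0.0768), none of which was called. Abcc9, the receptor SUR2, differed by 0.04 ± 0.13, 0.00 ± 0.12 and -0.22 ± 0.12 in the 3 settings.

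Kcnj3 had the largest standard errors of the 8 tested genes and was not called in any contrast. Probe set 1455374_at read 7.59, 8.44 and 7.39 in control and 7.27, 8.15 and 6.73 in SRFHKO hearts at day 25 (-0.42 ± 0.34). With PE it read 7.33, 7.30 and 7.02 in control and 8.06, 7.65 and 6.74 in SRFHKO hearts (0.27 ± 0.34). The SD within a day 25 group reached 0.72. In control hearts every PE heart lay below every heart without PE (-0.59 ± 0.34, limma adjusted p = 0.553). The probe sets 1421468_at and 1444025_at were not called either, and at day 8 their differences (0.47 ± 0.21 and 0.35 ± 0.31) were opposite in sign to that of 1455374_at (-0.29 ± 0.36).

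Markers of atrial myocytes also varied between hearts within the day 25 groups. Their summed scaled signal, over 6 of 7 listed markers (Bmp10 was below the filter), was 10693 to 24377 at day 25 and 4070 to 8032 at day 8, and Myl7, the atrial regulatory light chain, read 1203 to 4994 and 76.9 to 733. At day 25, SRFHKO PE replicate 1 had the highest atrial sum and the third highest Kcnj3 of 12 arrays, SRFHKO replicate 2 had the third highest sum and the second highest Kcnj3, and the 2 arrays with the lowest sums, SRFHKO replicate 3 (10693) and SRFHKO PE replicate 3 (11470), had the 2 lowest Kcnj3 levels (6.73 and 6.74). Control replicate 2, with the highest Kcnj3 level of all (8.44), stood 10th of 12 by atrial sum. Control replicate 3 stood 2nd of 12 by atrial sum and 6th by Kcnj3. Every day 8 array had a lower sum than any day 25 array, with Kcnj3 from 7.10 to 7.85. A run that followed day could not be told apart from day, so the lower sums are not read as an effect of day. Nppa alone gave 7489 of the 10693 in SRFHKO replicate 3 of day 25. No atrial marker was called in any of the 3 deletion contrasts (the smallest p at day 25 without PE was that of Stk39, -0.18 ± 0.17, limma adjusted p = 0.609), and the part of atrial tissue in the spread of Kcnj3 was not tested.

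**Figure D4:**
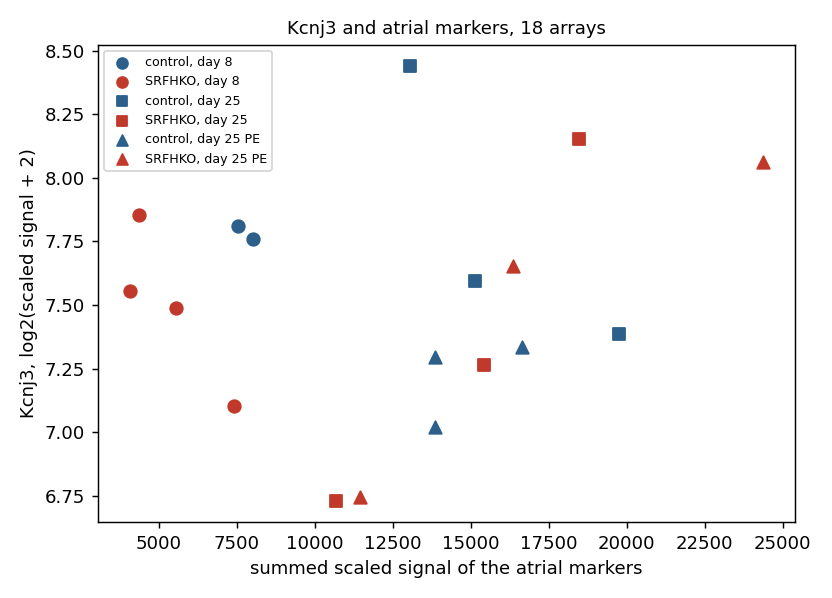
Kcnj3 level as log2(scaled signal + 2) against the summed scaled signal of 6 atrial markers, 1 point per array (blue control, red SRFHKO; circles day 8, squares day 25, triangles day 25 with PE). The day 25 arrays with the lowest atrial sums also have the lowest Kcnj3, and the control array at 8.44 lies apart with a sum of 13062. The day 8 arrays have the lowest sums of all, with Kcnj3 from 7.10 to 7.85, and day cannot be told apart from a run that followed it.

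Kcnj2, read by 1 probe set (1450503_at), lay below the filter limit of 3.58 on all 18 arrays, between 1.48 and 3.42, and its difference was not tested. A probe set this dim says nothing about the abundance of the transcript. Of the conduction system markers, Hcn4, Isl1 and Gja5 also had means below the filter limit, and Tbx3, Shox2 and Cntn2 together summed to 52.0 to 138 over all arrays. Of these Shox2 had the smallest p at day 25 (1.23 ± 0.53, limma adjusted p = 0.219).

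In all, the test called 0 of the 8 channel genes at day 8, 2 at day 25 without PE (Kcnip2 lower and Kcnj11 higher) and 2 at day 25 with PE (Kcnip2 lower and Kcnd3 higher). Of all genes tested, 0.0634%, 2.34% and 1.63% were called in these settings. At day 8, 1102 of the 12610 genes and 1 of the 8 (Kcnj11) had an unadjusted p below 0.05. The median difference of the 8 was -0.01 at day 8, -0.08 at day 25 and 0.11 with PE, beside -0.003, -0.05 and -0.004 over all genes tested. Averaged over the 3 settings, 3 of 8 were called: Kcnip2 (-1.45 ± 0.15, limma adjusted p = 1.68e-05), Kcnj11, and Kcnd3 (0.36 ± 0.09, limma adjusted p = 0.0196). The Kcnj11 and Kcnd3 calls in that mean were lost with the mean of probe sets, and the Kcnd3 call also with array brightness as a covariate (limma adjusted p = 0.199). In that contrast 5.58% of all genes were called, 2.70% higher and 2.89% lower. The 3 calls therefore ran in both directions, and 5 of the 8 tested genes had none.

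PE itself moved none of the 8 genes past the threshold in either genotype. In control hearts 1 of the 8 (Kcnd3) and 1328 of 12610 genes had an unadjusted p below 0.05, and 0.0317% of all genes were called. In SRFHKO hearts these were 0 of the 8, 1380 genes and 0.293%. Kcnip2 differed by 0.35 ± 0.25 in control hearts (limma adjusted p = 0.661) and 0.29 ± 0.25 in SRFHKO hearts (0.751), with overlap in both. Its second probe set was higher with PE in control hearts without overlap (0.75 ± 0.27, limma adjusted p over probe sets = 0.365) and differed by -0.08 ± 0.27 in SRFHKO hearts.

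For Kcnd3, read by 1435720_at, hearts with and without PE were apart in both genotypes, in opposite directions. The differences were -0.37 ± 0.15 in control hearts (limma adjusted p = 0.373) and 0.11 ± 0.15 in SRFHKO hearts (0.866). With the mean of its probe sets the SRFHKO difference turned to -0.95. The share of all genes apart in this way was not counted, and for 3 against 3 arrays the smallest exact permutation p is 0.1. The interaction was not called for any of the 8. Only 0.0238% of all genes were, with 1 of the 8 (Kcnd3) and 948 genes at an unadjusted p below 0.05. Averaged over both genotypes, PE called none of the 8, with 0 of them and 1732 genes at an unadjusted p below 0.05, beside 1.29% of all genes called.

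**Figure D5:**
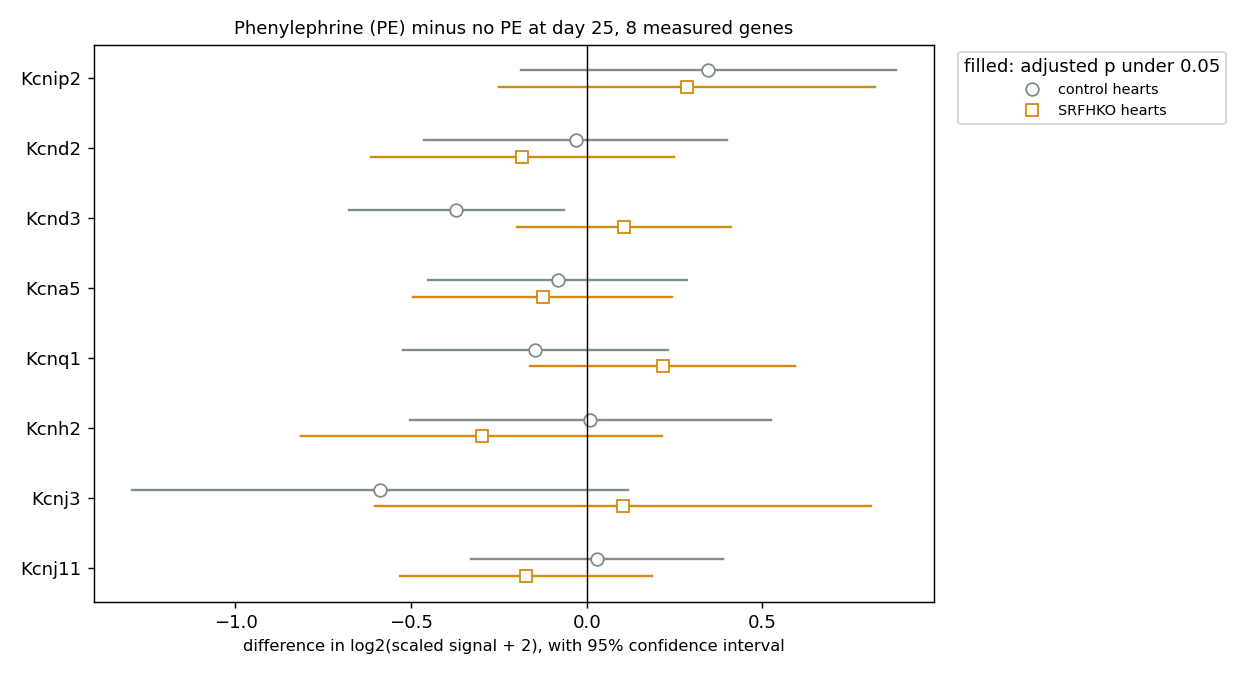
PE minus no PE difference in log2(scaled signal + 2) at day 25 with its 95% confidence interval, for the 8 tested genes in control hearts (circles) and SRFHKO hearts (squares); no symbol is filled, since no limma adjusted p was below 0.05. The Kcnd3 interval lies below 0 in control hearts (-0.37) and covers 0 in SRFHKO hearts (0.11).

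The remaining potassium channel genes, on 3 lists, were not called in any deletion or PE contrast. Of 21 further voltage-gated pore genes 10 were measured, with 0 called and median differences of -0.25 at day 25 and -0.18 with PE; the smallest p-values belonged to Kcnd1, a related pore of the transient outward family (-1.31 ± 0.45, limma adjusted p = 0.131), and to Kcna2 with PE (-0.76 ± 0.29, limma adjusted p = 0.208). Of 21 further inward rectifier, K2P and calcium-activated channel genes 13 were measured, with medians of -0.20 and -0.05; Kcnn2, a small-conductance calcium-activated channel, had -0.73 ± 0.27 at day 25 (limma adjusted p = 0.161) and Kcnj14 had 0.79 ± 0.28 with PE (0.171).

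Of 17 auxiliary subunit genes 10 were measured, with medians of -0.14 and -0.28. Kcne1, the partner of Kcnq1 in the slow delayed rectifier, came nearest to a call, at -0.68 ± 0.35 at day 25 and -1.39 ± 0.35 with PE (limma adjusted p = 0.312 and 0.0510). Kcnip1, a relative of Kcnip2, differed by 0.13 ± 0.39 and 0.07 ± 0.39. None of these values passed the threshold.

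Beyond potassium channels, 18 sodium, calcium and pacemaker channel and coupling genes were measured (of 29 listed). At day 25 without PE 2 of them rose, beside 1.26% of all genes, and the median of the 18 was 0.07 beside -0.05 over all genes. They were Gja1, the gap junction protein connexin 43 (0.74 ± 0.15, limma adjusted p = 0.0177), and Cacnb2, the beta-2 subunit of voltage-gated calcium channels (0.64 ± 0.14, 0.0267). Both calls were lost with only the groups compared in the fit (limma adjusted p = 0.0783 and 0.0933) and without the intensity trend (0.0551 and 0.0608), and that of Gja1 also with array brightness as a covariate (0.54, 0.232). Leaving out control replicate 3, SRFHKO replicate 2 or SRFHKO replicate 3 ended the Gja1 call (limma adjusted p up to 0.0913), and leaving out control replicate 2 or 3 or SRFHKO replicate 1 or 3 ended the Cacnb2 call (up to 0.113).

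None of the 18 was called with PE, where Gja1 differed by 0.43 ± 0.15 and Cacnb2 by 0.03 ± 0.14. Averaged over the 3 settings 3 of the 18 were called higher, beside 2.70% of all genes: Gja1 (0.44 ± 0.09, limma adjusted p = 0.00784), Cacnb2 (0.34 ± 0.09, 0.0259) and Cacnb1, another calcium channel beta subunit (0.54 ± 0.15, 0.0399). The Cacnb1 call was lost under 5 of 12 alternatives, among them the mean of its probe sets (0.09, limma adjusted p = 0.771), and without any 1 of 13 of the 18 arrays. The Gja1 call was lost with array brightness as a covariate (0.155), and the Cacnb2 call without the intensity trend (0.0584) and without control replicate 2 of day 8 or SRFHKO replicate 3 of day 25 (up to 0.108).

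Of 13 measured trafficking and anchoring genes (of 18), Cav3, the caveolin of muscle, fell with PE (-0.67 ± 0.15, limma adjusted p = 0.0227), beside 0.896% of all genes. That call was lost under 5 of 12 alternatives, median scaling (0.0994) and no scaling (-0.37, 0.345) among them, and without any 1 of the 6 arrays compared except SRFHKO PE replicate 1 (up to 0.109). Averaged over the settings Cav3 and Gpd1l were just past the threshold (-0.31 ± 0.09 and -0.20 ± 0.06; limma adjusted p = 0.0415 and 0.0492). The Cav3 call in that mean was lost under 6 of 12 alternatives, with a value of -0.06 without scaling, and the Gpd1l call was lost under 7 and turned in sign under another, no scaling (0.04). Each was also lost without any 1 of 15 of the 18 arrays (limma adjusted p up to 0.126 and 0.130).

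Of 25 measured transcription factor genes (of 26) named as regulators of repolarising channels, 1 was called at day 25, Myocd, a coactivator of SRF, which rose without PE (0.78 ± 0.18, limma adjusted p = 0.0288) and differed by 0.02 ± 0.18 with PE. The Myocd call was lost with only the groups compared (0.121), without the intensity trend (0.0745), with array brightness as a covariate (0.212), and without control replicate 2 or 3 or SRFHKO replicate 2 or 3 (limma adjusted p up to 0.133). Irx5, a known repressor of Kcnd2, differed by 0.01 ± 0.20 and -0.33 ± 0.20. Klf15, on the same list, read 8.39, 8.42 and 8.58 in control and 8.55, 7.95 and 7.78 in SRFHKO hearts at day 25. With PE it read 8.59, 7.52 and 8.55 in control and 8.11, 7.22 and 7.68 in SRFHKO hearts. The genotypes overlapped in both settings.

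Among markers of other cell types, 1 of 7 endothelial markers was called lower at day 25 without PE, Cldn5, a tight junction protein (-0.81 ± 0.19, limma adjusted p = 0.0312), beside 1.08% of all genes. The summed endothelial signal was 1642 to 1703 in SRFHKO and 1841 to 2440 in control hearts. The Cldn5 call was lost under 5 of 12 alternatives, median scaling (0.0840) and no scaling (-0.41, 0.315) among them, and without any 1 of the 6 arrays except SRFHKO replicate 2 (up to 0.0976). No marker was called there of 7 fibroblast, 7 smooth muscle and pericyte, 7 macrophage, 3 adipocyte and 2 neuronal and Schwann cell markers. The smallest p-values of these lists belonged to Tcf21 (0.27 ± 0.17, limma adjusted p = 0.414), Cspg4 (-0.47 ± 0.20, 0.208), Csf1r (-0.23 ± 0.13, 0.346), Fabp4 (-0.05 ± 0.08, 0.812) and S100b (-0.02 ± 0.39, 0.981).

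Averaged over the 3 settings, Acta2, smooth muscle actin, and Csf1r, the macrophage growth factor receptor, were called lower, 1 of 7 in each list (-0.56 ± 0.12 and -0.26 ± 0.08; limma adjusted p = 0.00943 and 0.0458). The Acta2 call was lost under 4 of 12 alternatives, among them no scaling (-0.31, 0.0604), array brightness as a covariate (-0.34, 0.204) and the day 25 settings alone (-0.43, 0.123). The Csf1r call was lost under 7, with a value of -0.02 without scaling, and without any 1 of 14 of the 18 arrays (limma adjusted p up to 0.149). No endothelial, fibroblast, adipocyte or neuronal marker was called in that mean.

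Of 3 measured skeletal muscle markers, Acta1 and Ckm, both also made by heart, fell, and Myh1, Myh2, Myh4, Tnnt3 and Actn3 were below the filter. Ckm differed by -2.06 ± 0.22 at day 25 and -1.99 ± 0.22 with PE (limma adjusted p = 0.000134 and 0.000194) and was called in both under all 12 alternatives. Acta1, skeletal actin, differed by -2.31 ± 0.38 at day 8, -1.43 ± 0.36 at day 25 and -2.28 ± 0.36 with PE (limma adjusted p = 0.0196, 0.0408 and 0.00255). The Acta1 call at day 25 was lost without scaling (-1.02, 0.0532), under 3 other alternatives and without any 1 of the 6 arrays except control replicate 2. At day 8 it was lost under 3 alternatives and without control replicate 2, SRFHKO replicate 1 or SRFHKO replicate 3 (limma adjusted p up to 0.310).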

How the data were processed

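RNA from 18 ventricular samples, 1 per array, was hybridised as biotin-labelled cRNA to Affymetrix 45101-feature arrays, per the labels' protocols. The deposited values are linear signal intensities made with GCOS, per the submitters' processing notes. No source used here gives the algorithm, version or target.

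Each array's intensities were scaled to a common 2% trimmed mean and expressed as log2(scaled signal + 2). Features with a mean below the 40th percentile of all features were left out, as were 64 control features, which left 27000 features. Each gene was read by its brightest probe set, with cross-hybridising sets (_x_at) used only where no other existed, giving 12610 genes. Symbols came from the platform annotation, with 34945 features naming 1 gene and 932 naming several, which were not used. limma 3.58.1 in R 4.3.3 fitted 6 group means with an intensity trend, and 9 contrasts were adjusted by Benjamini-Hochberg. For 3 against 3 arrays the smallest exact permutation p is 0.1. The array number limits the precision.

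The channel genes and the gene lists were chosen with earlier results of these data known. All 9 genes are named with every probe set that bears on a result. From each list, up to 4 genes past the threshold are named, or the one with the smallest p at day 25 where none passed, and others were named after their values were seen (Abcc8, Abcc9, Kcnip1, Irx5, Klf15, and genes called only in the mean over settings). Likeness to Kcnip2 names the 5 highest, 5 lowest and 3 highest within groups.

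The fit was tested on simulated data: at day 25 without PE, over 12610 genes, 57% of genes given a log2 shift of 1 were recovered and 89% with a shift of 2, and with PE 58% and 85%. In each draw 100 genes were shifted by each size in SRFHKO hearts, with independent normal noise. Other contrasts were not simulated. Alternatives covered scaling, pseudocount, filter, probe set choice, groups fitted, trend, replicate block, array brightness and each array left out. The same alternatives were run for called genes of the other lists, which was decided after seeing the data.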

Additional observations from a re-analysis of the deposited data

Results flagged for a closer look

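The PE differences of Kcnd3 had opposite signs in control and SRFHKO hearts with its brightest probe set, and neither passed the threshold. With probe set 1435720_at, all 3 control hearts with PE lay below all 3 without PE, and all 3 SRFHKO hearts with PE lay above all 3 without PE. The difference between the responses was 0.48 on the log2 scale (SRFHKO minus control). As an interaction in the limma fit it had an unadjusted p of 0.0324 and an adjusted p of 0.629, so it did not pass the threshold. With the mean of the Kcnd3 probe sets the interaction was -0.67. The PE difference in SRFHKO hearts then turned to -0.95, so the signs were no longer opposite. None of the 15 channel gene probe sets had an outlying heart among the 4 SRFHKO hearts of day 8, the only group large enough to be tested; chance gives about 1 in 20 such groups.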

How the results depend on the processing

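Kcnip2 was called lower at day 25, with PE and in the mean under each of 13 alternatives (day 25 -1.90 to -1.45, limma adjusted p 0.000806 to 0.0309; with PE -1.95 to -1.62) and with any array left out (-2.12 to -1.64; with PE -2.15 to -1.67). The number of channel genes called was 1 in place of 2 at day 25 and with PE, and 1 in place of 3 in the mean, under the mean of probe sets; 1 at day 25 and with PE with only the groups compared or with array brightness as a covariate; and 1 at day 25 without the intensity trend. With 1 array left out it was 1 to 2 at day 25 and 1 to 3 with PE. The cause was not tested. The replicate numbers did not pair the samples (correlations of deviations -0.08 to 0.09), and the replicate block called 306 genes in place of 295 at day 25 and left the channel gene counts as they were.

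All-gene counts moved more: at day 25, 295 became 849 with median scaling, 1089 without scaling, 591 over all probe sets, 147 without the trend, 40 with only the groups compared and 39 with brightness; with PE, 206 became 130 with only the groups compared, 73 without the trend and 56 with brightness, and the range was 2 to 46 at day 8 (8), 144 to 1606 in the mean (704), 1 to 10 for PE in controls (4), 1 to 50 in SRFHKO (37), 0 to 3 for the PE interaction (3), 0 to 305 for the day interaction (0) and 28 to 192 for mean PE (163). With 1 array left out, the counts, and so the shares of all genes called, ran from 56 to 397 at day 25, 47 to 205 with PE, 2 to 51 at day 8, 386 to 780 in the mean, 1 to 7 for PE in controls, 1 to 83 in SRFHKO, 0 to 7 for the PE interaction, 0 to 15 for the day interaction and 42 to 176 for mean PE. Median scaling and no scaling moved the all-gene median from -0.05 to 0.17 and 0.35 at day 25, and the share of higher calls from 53.9% to 94.2% and 98.3%; with PE that share went from 45.1% to 76.6% and 88.4%, in the mean from 48.3% to 78.0% and 97.3%, and at day 8 from 75% to 38.5% and 85.7%.

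Other sign changes were among differences that passed no threshold, except Gpd1l and Kcnd3 with PE. Under quantile normalisation the sign turned for PE in controls (Kcnh2 -0.0035), for day interaction (Kcna5 -0.042 and Kcnd2 -0.0091), for mean deletion (Kcnq1 -0.0051). Under median scaling the sign turned for deletion at day 8 (Kcnd3 -0.077 and Kcnq1 -0.0052), for deletion at day 25 (Kcna5 0.16 and Kcnh2 0.12), for deletion with PE (Kcna5 0.022), for PE in controls (Kcna5 0.070, Kcnd2 0.12 and Kcnq1 0.0062), for day interaction (Kcnj3 0.21), for mean PE (Kcna5 0.0017 and Kcnj11 0.035). Under no scaling the sign turned for deletion at day 25 (Kcna5 0.35, Kcnh2 0.31 and Kcnq1 0.18), for deletion with PE (Kcna5 0.20), for PE in controls (Kcna5 0.10, Kcnd2 0.15 and Kcnq1 0.039), for day interaction (Kcnj3 0.26 and Kcnq1 0.042), for mean deletion (Kcna5 0.17, Kcnj3 0.095 and Gpd1l 0.045), for mean PE (Kcna5 0.029, Kcnd2 0.026, Kcnd3 0.0010 and Kcnj11 0.063). Under the mean of probe sets the sign turned for deletion at day 8 (Kcnj3 0.18), for deletion with PE (Kcnd3 -0.41), for PE in controls (Kcnj11 -0.35), for PE in SRFHKO (Kcnd3 -0.95 and Kcnj3 -0.13), for PE interaction (Kcnd2 0.038, Kcnd3 -0.67 and Kcnj11 0.21), for day interaction (Kcnd2 -0.0074 and Kcnj11 -0.49), for mean deletion (Kcnj3 0.10). Under the replicate block the sign turned for deletion at day 8 (Kcnj3 0.055), for day interaction (Kcna5 -0.054 and Kcnd2 -0.17). Under array brightness as a covariate the sign turned for deletion at day 25 (Kcna5 0.085, Kcnd2 -0.073 and Kcnh2 0.14), for deletion with PE (Kcna5 0.0056, Kcnd2 -0.15 and Kcnj3 -0.25), for PE in SRFHKO (Kcnj3 -0.036), for day interaction (Kcnd2 -0.29), for mean deletion (Kcna5 0.010 and Kcnq1 -0.019). Under the mean over day 25 alone, an alternative chosen after seeing the data, the sign turned for mean deletion (Kcnq1 -0.045). With 1 array left out in turn, ranges that crossed 0 were, for deletion at day 8, Kcna5 -0.20 to 0.032, Kcnd2 -0.11 to 0.57, Kcnd3 -0.041 to 0.15 and Kcnq1 -0.048 to 0.30, for day interaction, Kcna5 -0.13 to 0.14, Kcnd2 -0.33 to 0.35, Kcnh2 -0.058 to 0.27 and Kcnj3 -0.52 to 0.19, for mean deletion, Kcnq1 -0.052 to 0.071, for deletion at day 25, Kcna5 -0.20 to 0.066 and Kcnh2 -0.30 to 0.027, for PE in controls, Kcna5 -0.22 to 0.046, Kcnd2 -0.24 to 0.14, Kcnh2 -0.20 to 0.14 and Kcnj11 -0.19 to 0.22, for PE interaction, Kcna5 -0.17 to 0.094, Kcnd2 -0.33 to 0.055, Kcnip2 -0.29 to 0.20 and Kcnj11 -0.39 to 0.016, for mean PE, Kcnj11 -0.18 to 0.021 and Kcnq1 -0.038 to 0.13, for deletion with PE, Kcna5 -0.22 to 0.013, Kcnd2 -0.048 to 0.16, Kcnj3 -0.019 to 0.64 and Kcnq1 -0.0028 to 0.28, for PE in SRFHKO, Kcnj3 -0.22 to 0.49. Dim probe sets limit what can be seen of Kcnj2, and a PE difference could be present and go uncalled with 3 hearts a group. The intervals do not set the smallest difference that the adjusted test can call. In the simulated deletion differences at day 25, also 3 against 3, 57% and 58% of log2 shifts of 1 were recovered. Each of those draws held 100 genes shifted by 1 and 100 shifted by 2. No PE difference was simulated, and the adjusted threshold depends on how many genes are shifted. These rates are therefore not the rates for a PE difference.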
